A study of Mus musculus with 11 samples.

Results

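The genes described here are 8 genes of growth factor and insulin or insulin-like growth factor (IGF) signalling, Pdgfc, Ndnf, Igf1, Igf1r, Insr, Irs1, Irs2 and Igfbp4, in blood stem and progenitor cells of mouse bone marrow. They were picked by symbol, with their values in the EMCN+ and EMCN- stem cell fractions already known, as the growth factor genes that stood high in the EMCN+ fraction and the receptor-side genes of the same pathway. All 8 are in the table of 54347 genes, and 7 of them, all but Irs1, are among the 14915 genes that passed the filter on low counts.

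RNA was sequenced from EMCN+ long-term haematopoietic stem cells (LT-HSCs; 4 libraries, mice 1 to 4), EMCN- LT-HSCs (3 libraries, mice 1, 2 and 4) and granulocyte-monocyte progenitors (GMPs; 4 libraries, mice 1 to 4). All cells came from the hind-limb and hip bones of female C57BL/6NTac mice, of an age not given in the sources used here. LT-HSCs were lineage-depleted cells positive for Sca-1, c-Kit and CD150 and negative for CD48, split by the surface sialomucin endomucin (EMCN), with 3000 to 5000 cells per LT-HSC sample, and GMPs are their more differentiated relatives. The submitters left out 1 EMCN- library for poor quality, and library totals ran from 3.63 to 11.1 M (1e+06) estimated counts.

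PDGF and IGF ligands are secreted proteins that act through receptor tyrosine kinases on the surface of the same or of neighbouring cells. IGF-1 binds the IGF-1 receptor and, more weakly, the insulin receptor. The activated receptors phosphorylate the docking proteins IRS-1 and IRS-2, which recruit PI3-kinase and so switch on AKT and mTOR, while secreted IGF-binding proteins hold the ligand away from its receptor. In bone marrow this pathway is known for promoting growth and survival of blood progenitors, and AKT keeps the FOXO factors, known for guarding stem cell quiescence, out of the nucleus.

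In genome build GRCm38 (GENCODE M21), Pdgfc (ENSMUSG00000028019.9) lies on the plus strand of chromosome 3 from 81036416 to 81214040. Ndnf (ENSMUSG00000049001.5) lies on the plus strand of chromosome 6 from 65671590 to 65712326, and Igf1 (ENSMUSG00000020053.18) on the plus strand of chromosome 10 from 87858265 to 87937042. Igf1r (ENSMUSG00000005533.10) lies on the plus strand of chromosome 7 from 67952827 to 68233668. Insr (ENSMUSG00000005534.10) and Irs2 (ENSMUSG00000038894.7) are both on the minus strand of chromosome 8, from 3122061 to 3279617 and from 10984681 to 11008458. Irs1 (ENSMUSG00000055980.2) lies on the minus strand of chromosome 1 from 82233101 to 82291416, and Igfbp4 (ENSMUSG00000017493.12) on the plus strand of chromosome 11 from 99041244 to 99054392. Genes annotated on the opposite strand of Pdgfc, Igf1, Insr, Irs1 or Irs2 had between 0 and 4 counts each over all 11 libraries. The strand setting of the counting is not given in the sources used here.

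RefSeq promoter windows (build GRCm38.p6) matched 6 of the 8 genes, and Ndnf and Insr had no entry. The 250 bases upstream of the annotated start of 3 genes are shown because they span low to high CpG content and belong to genes with different patterns below: Pdgfc, which was at or next to 0 counts in GMPs, Igf1r, which was well counted in every library, and Igfbp4, which was highest in GMPs. Capitals mark CpG dinucleotides, 5′ to 3′ on the strand of the gene. The windows are chr3:81036166-81036415 for Pdgfc, chr7:67952007-67952256 for Igf1r and chr11:99040994-99041243 for Igfbp4, all on the plus strand. Each ends just before the RefSeq start of the gene, which for Igf1r lies upstream of its GENCODE start given above and for Pdgfc and Igfbp4 is that same start.
Pdgfc: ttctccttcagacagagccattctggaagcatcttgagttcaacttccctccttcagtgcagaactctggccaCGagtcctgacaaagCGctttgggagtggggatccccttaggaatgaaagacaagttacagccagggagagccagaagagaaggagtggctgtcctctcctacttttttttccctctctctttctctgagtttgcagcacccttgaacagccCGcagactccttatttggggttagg
Igf1r: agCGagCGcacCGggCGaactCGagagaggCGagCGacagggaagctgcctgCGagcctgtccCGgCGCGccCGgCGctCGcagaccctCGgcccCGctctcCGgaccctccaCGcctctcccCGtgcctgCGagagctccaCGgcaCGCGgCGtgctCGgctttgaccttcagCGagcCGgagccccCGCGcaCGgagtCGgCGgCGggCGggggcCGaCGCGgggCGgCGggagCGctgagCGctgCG
Igfbp4: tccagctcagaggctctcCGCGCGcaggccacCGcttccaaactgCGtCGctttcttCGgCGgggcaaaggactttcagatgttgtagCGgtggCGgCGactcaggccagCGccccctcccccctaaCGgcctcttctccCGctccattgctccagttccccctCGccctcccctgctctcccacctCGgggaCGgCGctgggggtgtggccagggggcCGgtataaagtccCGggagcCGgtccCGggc
The Pdgfc window holds 3 CpGs at a GC content of 50.8%, the Igf1r window 42 at 77.6% and the Igfbp4 window 22 at 69.2%. Over 32851 promoter windows of the same length the medians were 6 CpGs and 52.4% GC. Fewer CpGs than in Pdgfc were found in 29.0% of windows, fewer than in Igf1r in 99.1% and fewer than in Igfbp4 in 85.2%. The substrate genes Irs1 and Irs2 had 28 and 34 CpGs, and the Igf1 window, which lies wholly within annotated exons and is not shown, had 5. Of the motifs searched on both strands, the GC box GGGCGG occurred in the Igf1r window, as in 32.7% of all windows, and the TATA box TATAAA in the Igfbp4 window, as in 12.4%. The FOXO motif GTAAACA, present in 3.2% of all windows, is not among the letters of these 3 windows.

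Levels are given as CPM, counts per 1e+06 counts, scaled with TMM factors, which correct library sizes for differences in composition. Pdgfc encodes PDGF-C, a ligand that is secreted in latent form, is cut by proteases and acts chiefly on PDGF receptor alpha. It stood at 10.9, 15.6, 16.2 and 10.4 CPM in EMCN+ LT-HSCs of mice 1 to 4, against 1.22, 1.61 and 1.88 CPM in EMCN- LT-HSCs of mice 1, 2 and 4. In GMPs it had 0.163 CPM in mouse 2, which is 1 count, and 0 in mice 1, 3 and 4, where a count of 0 still allows up to 3 counts, worth 0.473, 0.683 and 0.56 CPM. Every EMCN+ library lay above every EMCN- library, and every EMCN- library above every GMP library.

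Ndnf encodes neuron-derived neurotrophic factor, a secreted glycoprotein known to support the survival of neurons and endothelial cells. Its level was 9.13, 16.9, 18.6 and 12.3 CPM in EMCN+ LT-HSCs of mice 1 to 4, against 1.99, 2.1 and 1.17 CPM in EMCN- LT-HSCs of mice 1, 2 and 4. GMPs had 4 counts in all, each of them in mouse 2 (0.653 CPM). The order of the populations was that of Pdgfc, again with no overlap.

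Igf1, the gene of the IGF-1 ligand, had 16.2, 25.4, 27.8 and 21.1 CPM in EMCN+ LT-HSCs of mice 1 to 4, against 4.9, 3.39 and 3.76 CPM in EMCN- LT-HSCs of mice 1, 2 and 4. GMPs had 1.1, 0.979, 3.87 and 2.99 CPM in mice 1 to 4. EMCN+ libraries lay above all others, while the EMCN- library of mouse 2 lay below the GMP library of mouse 3, so that EMCN- LT-HSCs and GMPs overlapped for this ligand. In all 3 ligand genes the EMCN+ library of mouse 3 was highest and that of mouse 2 next.

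**Figure D1:**
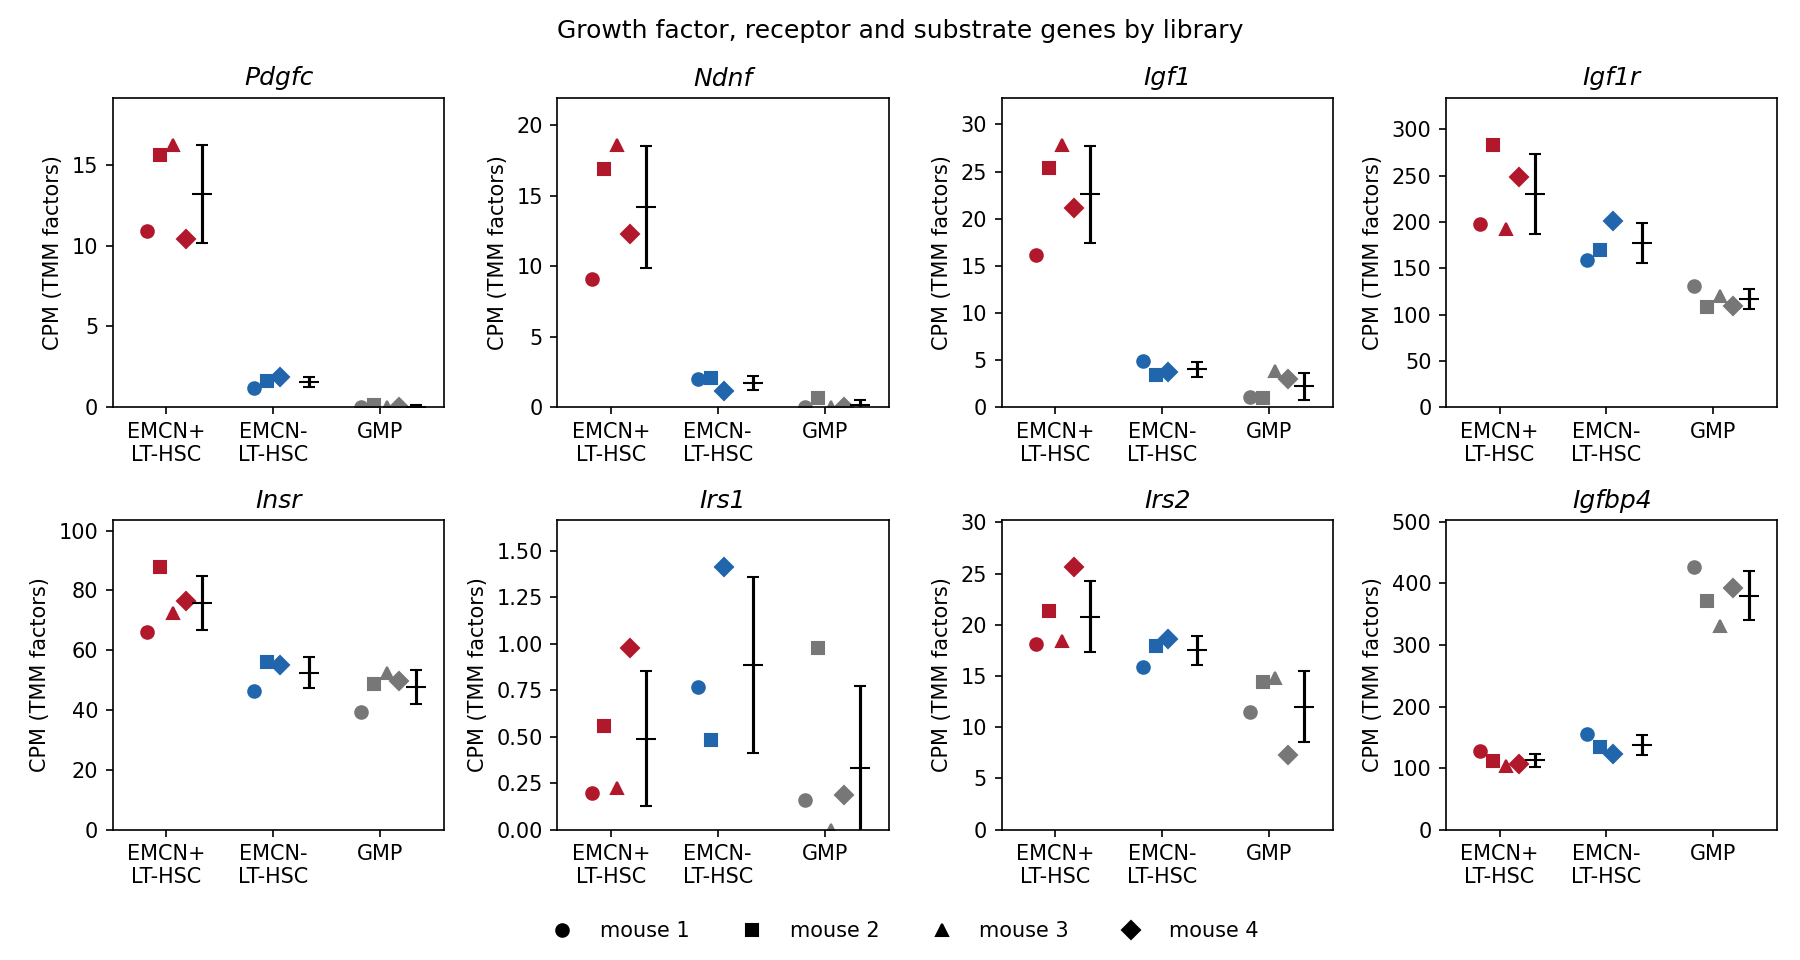
CPM with TMM factors (vertical axes from 0, 1 panel per gene) in each library of EMCN+ LT-HSCs, EMCN- LT-HSCs and GMPs, with the shape of a point giving the mouse and the bar beside each group its mean and SD. EMCN+ libraries stand apart for Pdgfc, Ndnf and Igf1 (lowest 10.4, 9.13 and 16.2 CPM), the receptor genes differ less, and Igfbp4 is highest in GMPs (331 to 426 CPM).

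Igf1r, the gene of the IGF-1 receptor, had 198, 283, 192 and 249 CPM in EMCN+ LT-HSCs of mice 1 to 4, against 159, 170 and 201 CPM in EMCN- LT-HSCs of mice 1, 2 and 4. In GMPs it had 131, 108, 120 and 109 CPM. The 2 stem cell fractions overlapped, since EMCN+ mice 1 and 3 lay below EMCN- mouse 4, but all 7 LT-HSC libraries lay above all 4 GMP libraries.

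Insr, the gene of the insulin receptor, had 66.1, 87.7, 72.4 and 76.4 CPM in EMCN+ LT-HSCs of mice 1 to 4, against 46.5, 56 and 55 CPM in EMCN- LT-HSCs of mice 1, 2 and 4. GMPs had 39.4, 48.8, 52.4 and 49.8 CPM. Every EMCN+ library lay above all others, while EMCN- LT-HSCs and GMPs overlapped.

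Irs2, the gene of the docking protein IRS-2, had 18.1, 21.3, 18.4 and 25.6 CPM in EMCN+ LT-HSCs of mice 1 to 4, against 15.9, 17.9 and 18.6 CPM in EMCN- LT-HSCs of mice 1, 2 and 4. In GMPs it had 11.5, 14.4, 14.8 and 7.28 CPM. The stem cell fractions overlapped, and all 7 of their libraries lay above the GMP libraries. Irs1, the gene of the other docking protein, was close to the limit of detection, with 17 counts over the 4 EMCN+ libraries, 14 over the 3 EMCN- libraries and 8 over the 4 GMP libraries. Its highest value was 0.977 CPM in EMCN+ LT-HSCs, 1.41 CPM in EMCN- LT-HSCs and 0.979 CPM in GMPs, and no order of the 3 populations was detectable at this depth.

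Igfbp4 encodes a secreted protein that binds IGFs and releases them when it is cut by the protease PAPP-A. It ran the other way, with 128, 111, 104 and 107 CPM in EMCN+ LT-HSCs of mice 1 to 4 and 156, 135 and 123 CPM in EMCN- LT-HSCs of mice 1, 2 and 4. GMPs had 426, 372, 331 and 392 CPM, so that every GMP library lay far above every LT-HSC library.

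The comparison of LT-HSCs with GMPs asked how stem cells differ from a more differentiated population, and it weighted the 7 LT-HSC libraries equally. These libraries come from 4 mice, 3 of which gave both fractions, and the same 4 mice gave the GMPs. The fit had no mouse term and took the libraries as separate, and adding mouse as a block changed no call of the 7 genes tested. The equal weighting makes the comparison orthogonal to the difference between EMCN+ and EMCN- on which the genes were chosen. The EMCN+ values, on which Pdgfc, Ndnf and Igf1 were picked, still enter the LT-HSC mean. The p values of these 3 genes are therefore not free of that choice. Igf1r, Igf1, Insr, Irs2, Pdgfc and Ndnf were higher in LT-HSCs and Igfbp4 was lower, by edgeR's quasi-likelihood test with Benjamini-Hochberg adjustment over all genes tested. By the same test 62.5% of all genes were called, 32.5% higher and 29.9% lower in LT-HSCs, so a call by itself does not set these genes apart. Likewise, the 4 genes whose LT-HSC libraries all lay above the GMP libraries (Pdgfc, Ndnf, Igf1r and Irs2) compare with 25% of all genes tested, and Igfbp4, with all of them below, with 23%.

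Igf1 was 5.03-fold higher in LT-HSCs, at a mean of 14.7 ± 10.6 CPM (SD, n = 7) against 2.23 ± 1.43 CPM in GMPs (n = 4), a log2 difference of 2.33 ± 0.32 (SE; edgeR adjusted p = 3.07e-06). The fold comes from the fitted log2 difference, which averages the fractions on the log2 scale, and is not the ratio of these means. The LT-HSC mean spans both fractions, which stood at 22.6 ± 5.12 CPM (EMCN+, n = 4) and 4.02 ± 0.785 CPM (EMCN-, n = 3). For Igf1r the log2 difference was 0.81 ± 0.11 (edgeR adjusted p = 2.4e-06), with 207 ± 43.9 CPM in LT-HSCs and 117 ± 10.7 CPM in GMPs. Insr differed by 0.45 ± 0.11 (edgeR adjusted p = 0.00124) and Irs2 by 0.68 ± 0.18 (edgeR adjusted p = 0.00263), or 1.36-fold and 1.61-fold. Igfbp4 differed by -1.63 ± 0.09 (edgeR adjusted p = 3.14e-12), at 123 ± 18.1 CPM in LT-HSCs and 380 ± 39.5 CPM in GMPs. A lower level in bulk RNA can come from fewer cells with the transcript or from less RNA per cell, and these cannot be told apart here.

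For Pdgfc 557 counts in the LT-HSC libraries stood against 1 in the GMP libraries, a depth-corrected ratio of 223 with an exact 95% counting interval of 39.9 to 8820. For Ndnf 596 counts stood against 4, a ratio of 59.7 with an interval of 23.2 to 220. These ratios pool the counts, of which 531 (Pdgfc) and 565 (Ndnf) were from EMCN+ LT-HSCs. The edgeR fit, with libraries weighted equally, gave 85-fold for Pdgfc and 30.1-fold for Ndnf. Both genes passed the filter on low counts through the LT-HSC libraries alone, so no lower level in LT-HSCs could be found. Their folds are therefore given as a description, without p values. The intervals cover counting error only, since they pool the libraries of a group and leave out the variation between libraries. Reads were counted without molecular identifiers, so the intervals may be too narrow even for that error. The EMCN- fraction alone held 26 Pdgfc counts and 31 Ndnf counts, a ratio to GMPs of 34 (5.59 to 1390) and 10.1 (3.58 to 39.5). All GMP counts of both genes were in GMP replicate 2. Without that library GMPs had 0 counts, and the fitted log2 differences, which then depend on the prior count, were 8.25 for Pdgfc (against 6.41) and 8.4 for Ndnf (against 4.91).

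Each fraction was also set against GMPs by itself, a comparison added after the data were seen. EMCN+ LT-HSCs were above GMPs by 3.4 ± 0.33 on the log2 scale for Igf1, 0.98 ± 0.12 for Igf1r, 0.67 ± 0.12 for Insr and 0.79 ± 0.2 for Irs2 (± SE). The corresponding EMCN- differences were 0.91 ± 0.39 for Igf1, 0.6 ± 0.13 for Igf1r, 0.14 ± 0.13 for Insr and 0.54 ± 0.22 for Irs2. Igfbp4 stood at -1.75 ± 0.11 in EMCN+ and -1.46 ± 0.12 in EMCN- LT-HSCs. High EMCN+ or low EMCN- values were part of how the genes were chosen, and both comparisons share the GMP libraries, so these values are a description with no test.

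Scaling by total counts in place of TMM factors, also added later, moved the median of all genes' differences between LT-HSCs and GMPs to 0.75, against 0.0355 with TMM. These are differences of group means of log2(CPM + 0.5), whereas the median of the fitted edgeR log2 differences is 0.0298. The 7 genes kept their direction under it, at 1.59 for Igf1r, 1.22 for Insr, 1.47 for Irs2, 3.11 for Igf1 and -0.848 for Igfbp4. The share of called genes that were higher in LT-HSCs then was 82.6%, against 52.1%.

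Setting EMCN+ against EMCN- LT-HSCs addresses what distinguishes stem cells with surface endomucin. Because the genes were chosen on it, their differences are given as a description with no test. The log2 difference was 3.09 ± 0.37 (SE) for Pdgfc, 2.98 ± 0.46 for Ndnf and 2.48 ± 0.34 for Igf1, which placed them at ranks 41, 45 and 68 from the top of 14915 genes. It was 0.53 ± 0.13 for Insr, 0.38 ± 0.13 for Igf1r, 0.25 ± 0.21 for Irs2 and -0.29 ± 0.12 for Igfbp4. The 3 ligands thus stood 8.51-fold (Pdgfc), 7.89-fold (Ndnf) and 5.58-fold (Igf1) higher in EMCN+ LT-HSCs and the receptors 1.44-fold (Insr) and 1.3-fold (Igf1r). Over all genes tested 1.96% were called in this comparison, 0.771% higher and 1.19% lower. Every EMCN+ library lay above every EMCN- library for Pdgfc, Ndnf, Igf1 and Insr, as for 7.25% of all genes tested, and below for 0 of the 8 genes, against 6.99%.

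Both fractions were sorted from the same animals, so the difference can be read within mice 1, 2 and 4. The EMCN+ to EMCN- ratio was 8.92, 9.63 and 5.51 for Pdgfc, 4.59, 8.07 and 10.5 for Ndnf and 3.31, 7.49 and 5.62 for Igf1. Mouse 4 thus had the smallest ratio for Pdgfc and the largest for Ndnf, and mouse 1 the smallest for Ndnf and Igf1. For the receptors the ratios were 1.24, 1.66 and 1.24 (Igf1r) and 1.42, 1.57 and 1.39 (Insr), with mouse 2 highest for both. Irs2 had 1.14, 1.19 and 1.38, and Igfbp4 0.824, 0.819 and 0.875. Within each of the 3 mice the EMCN+ library was thus the higher one for Igf1r and Irs2, whose fractions overlapped across animals. Irs1 had ratios of 0.26, 1.15 and 0.693, from 2 to 8 counts per library.

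**Figure D2:**
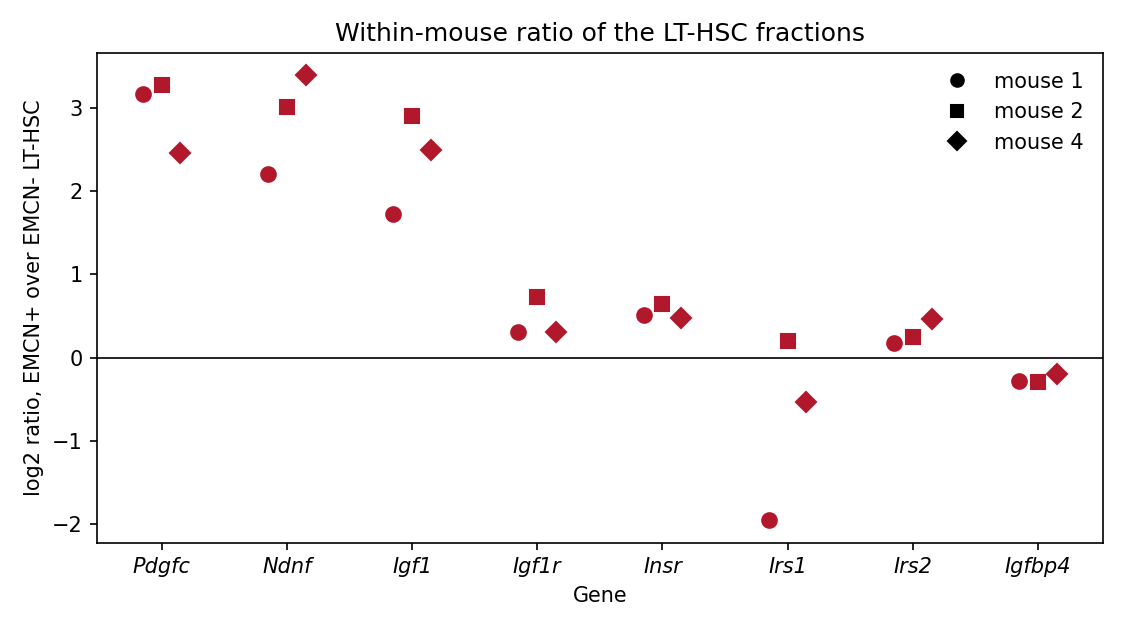
Log2 ratio of CPM in EMCN+ over EMCN- LT-HSCs of the same animal (vertical axis) for each gene (horizontal axis), with 1 point per mouse and a line at 0, where the fractions are equal. Pdgfc, Ndnf and Igf1 lie between 1.72 and 3.39, Igf1r, Insr and Irs2 between 0.183 and 0.735, Igfbp4 just below 0, and Irs1 on both sides of it.

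Among markers of the sorted cells, Emcn stood at 26.2 ± 1.37 CPM in EMCN+ LT-HSCs, 14.4 ± 1.76 CPM in EMCN- LT-HSCs and 0.521 ± 0.611 CPM in GMPs, and the GMP gene Mpo at 0.98, 3.84 and 11400 CPM in the same order. The summed level of 20 endothelial markers was 559 to 739 CPM in EMCN+ LT-HSCs, against 405 to 478 CPM in EMCN- LT-HSCs. In GMPs it was 102 to 127 CPM. Emcn, whose product was used to split the fractions, is among these markers, so the summed levels of the fractions are not independent of the sort. Its members also differed: mean Vwf fell from 129 (EMCN+) to 49.8 CPM (EMCN-), while Pecam1 went from 46 to 48.2 CPM. Of the 20 genes 0 were at 0 counts in EMCN+ LT-HSCs, 3 in EMCN- LT-HSCs and 5 in GMPs. Of the defining markers Cdh5 had 0.806 ± 0.186 CPM in EMCN+ LT-HSCs, 0.18 ± 0.16 CPM in EMCN- LT-HSCs and 0 in GMPs. Cldn5, Mmrn2 and Nos3 were at 0 in EMCN- LT-HSCs and GMPs. In EMCN+ LT-HSCs Cldn5 had 1.32 ± 0.713 CPM (0.695 to 2.35), and Mmrn2 and Nos3 were under 1 CPM in each library. The part of endothelial RNA in the levels of Pdgfc, Ndnf and Igf1 was not tested. The 20 stromal markers summed to 102 to 127 CPM in the EMCN+ fraction, 100 to 111 CPM in the EMCN- fraction and 50.5 to 70.2 CPM in GMPs. Lum was at 0 in EMCN+ LT-HSCs, and 13 others, with Pdgfra, Lepr and Col1a1 among them, stayed under 1 CPM in each EMCN+ library. The 20 macrophage markers summed to 124 to 170 CPM in EMCN+ LT-HSCs, 137 to 178 CPM in EMCN- LT-HSCs and 249 to 321 CPM in GMPs, and the 15 megakaryocyte markers to 417 to 470, 367 to 455 and 80.3 to 104 CPM in the same order.

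Levels of different genes were compared per length, as CPM per kilobase of the gene's merged exons. In EMCN+ LT-HSCs the order was Igfbp4 (25.5), Igf1r (13.7), Insr (5.5), Irs2 (3.29), Pdgfc (2.6), Igf1 (2.28), Ndnf (1.41) and Irs1 (0.0535 CPM per kilobase). The ranges over the 4 libraries overlapped between Irs2 (2.86 to 4.05) and Pdgfc (2.04 to 3.17), Pdgfc and Igf1 (1.63 to 2.81), and Igf1 and Ndnf (0.903 to 1.84), and not between the other neighbours. In EMCN- LT-HSCs the order of the top 4 was the same, at 31.2, 10.5, 3.82 and 2.76, and the 3 ligands stood at 0.405 (Igf1), 0.309 (Pdgfc) and 0.173 (Ndnf), with Igf1 and Pdgfc overlapping. In GMPs Igfbp4 reached 86.1 CPM per kilobase, followed by Igf1r (6.96), Insr (3.46) and Irs2 (1.9), with all ligand genes under 0.4 in each library.

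**Figure D3:**
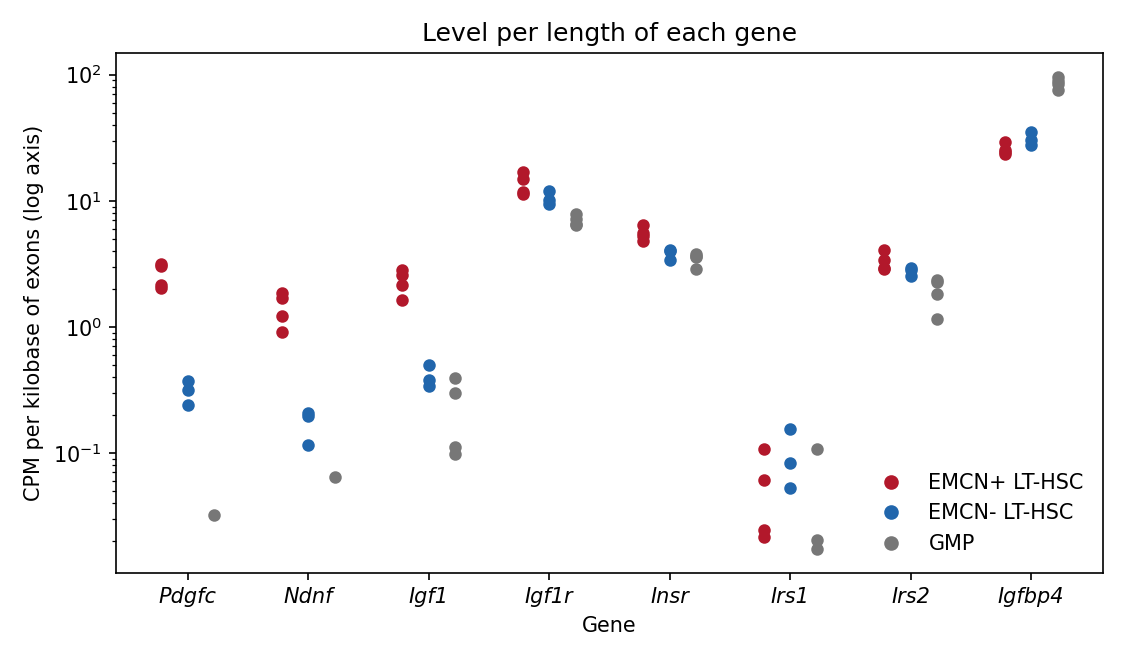
CPM per kilobase of merged exons (vertical log axis) of each gene (horizontal axis) in EMCN+ LT-HSCs, EMCN- LT-HSCs and GMPs, with 1 point per library. Libraries at 0 (3 GMP libraries for Pdgfc, 3 for Ndnf and 1 for Irs1) cannot be drawn on a log axis, and the receptor genes keep their order in the 3 populations while the ligand genes spread over the scale.

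Ratios within a library do not depend on the scaling factors. The Igf1r to Insr ratio per length was 2.48 ± 0.23 in EMCN+ LT-HSCs (SD, n = 4), 2.76 ± 0.258 in EMCN- LT-HSCs (n = 3) and 2.04 ± 0.445 in GMPs (n = 4), with overlapping ranges (2.17 to 2.67, 2.48 to 2.99 and 1.79 to 2.71). Irs2 exceeded Irs1 per length by 37.9- to 132-fold over the EMCN+ libraries and by 19- to 53.5-fold over the EMCN- libraries, from 2 to 8 Irs1 counts per library. Among the IGF-binding protein genes Igfbp1 to Igfbp7, Igfbp4 held 98.2 ± 0.956% of the summed level per length in EMCN+ LT-HSCs, 99.1 ± 0.854% in EMCN- LT-HSCs and 99 ± 0.665% in GMPs. Pdgfc held 28.2 ± 4.15% of the level of the 4 PDGF ligand genes in EMCN+ LT-HSCs, against 7 ± 2.02% in EMCN- LT-HSCs. Igf1 held 63.1 ± 4.69% of the summed Igf1 and Igf2 level in EMCN+ LT-HSCs and 71 ± 9.92% in EMCN- LT-HSCs, with overlapping ranges (56.5 to 67.2% and 63.4 to 82.2%).

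The other genes of the pathway were read from lists chosen with earlier results of these data known. Of 18 other genes of IGF ligands, binding proteins, proteases and related receptors 3 passed the filter, the ligand gene Igf2 and the receptor genes Igf2r and Insrr. All 3 were higher in LT-HSCs than in GMPs, beside 32.5% of all genes called higher and 29.9% called lower. Like every gene here with 0 GMP counts, Igf2 and Insrr passed the filter through the LT-HSC libraries alone. So did genes with few GMP counts, among them Kdr (3), Trib3 and Fgf11 (4 each), Pdgfb (7), Inhba (10) and Socs2 (12). For such genes no lower level in LT-HSCs could be found. In reverse, Pik3r6, Nrg1, Nrg2, Nrp1, Flt1 and Plau passed through the GMP libraries alone, and no higher level in LT-HSCs could be found. Calls and list counts against GMPs are thus in part fixed by the filter. Igf2, the imprinted gene of the second IGF ligand, had 7.75 ± 2.16 CPM in EMCN+ LT-HSCs, 0.992 ± 0.469 CPM in EMCN- LT-HSCs and 0 counts in GMPs, so that LT-HSCs were at least 41.5-fold higher (against 3 counts over the group, as in every such bound here, which is no limit of a counting interval). Between the fractions its log2 difference was 2.89 ± 0.51 (edgeR adjusted p = 0.00706). Igf2r, whose product clears IGF-2 and carries no kinase, had 62.3 ± 9.48 CPM in EMCN+ LT-HSCs, 33.3 ± 5.82 CPM in EMCN- LT-HSCs and 3.1 ± 1.43 CPM in GMPs. It differed by 3.92 ± 0.21 between LT-HSCs and GMPs (edgeR adjusted p = 4.17e-12) and by 0.91 ± 0.18 between the fractions (adjusted p = 0.0134). The second call was lost without EMCN- replicate 1 (0.12) or EMCN+ replicate 2 (0.0661). Insrr, a receptor gene related to Insr, had 3.68 ± 1.37 CPM in the EMCN+ fraction, 3.04 ± 0.308 CPM in the EMCN- fraction and 0 counts in GMPs (at least 26.2-fold).

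Of 23 tested genes of adaptors, PI3-kinase and AKT 15 were higher and 4 lower in LT-HSCs than in GMPs (median log2 difference 0.49, against 0.0298 over all genes tested). Counts of this and the following lists stand beside 32.5% of all genes called higher and 29.9% called lower. Between the fractions they stand beside 0.771% called higher and 1.19% called lower by edgeR. At an unadjusted edgeR p under 0.05 that comparison had 894 higher and 1182 lower of all 14915 genes. DESeq2 called 203 higher and 248 lower between the fractions, and limma-voom 179 and 195. Grb10, an adaptor known to restrain the insulin and IGF-1 receptors, averaged 162 ± 17.9 CPM in EMCN+ LT-HSCs, 122 ± 6.35 CPM in EMCN- LT-HSCs and 19.2 ± 2.72 CPM in GMPs (log2 2.9 ± 0.12, edgeR adjusted p = 1.61e-14). The docking protein gene Gab1 (2.53 ± 0.16) and Pik3r1 (1.38 ± 0.1) were also higher. Lower in LT-HSCs were Pik3cb (-1.2 ± 0.17), the adaptor gene Sh2b2 (-1.78 ± 0.2), and the regulatory subunit genes of PI3-kinase gamma, Pik3r5 (-1.6 ± 0.23) and Pik3r6. Pik3r6 had 5 counts in LT-HSCs and 200 in GMPs, a ratio of 0.01 (exact 95% counting interval 0.00321 to 0.0237). Between the fractions the edgeR test called 1 gene of this list higher and 0 lower, against 5 and 2 at an unadjusted p under 0.05 and 2 and 0 with DESeq2 and with limma-voom. That gene was Pik3r1, which encodes the p85 alpha regulatory subunit that binds phosphorylated IRS proteins, at 456 ± 48.3 CPM in the EMCN+ fraction and 253 ± 28.1 CPM in the EMCN- fraction (log2 0.85 ± 0.11, edgeR adjusted p = 0.000882), with 136 ± 9.71 CPM in GMPs.

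Of 22 genes that brake the pathway, all of them tested, 16 were higher and 0 lower in LT-HSCs than in GMPs by edgeR, with the same counts at an unadjusted p under 0.05, with DESeq2 and with limma-voom, and a median of 0.95. The shares of all genes were 32.5% higher and 29.9% lower. With total counts 22 were higher and 0 lower (median 1.74), with upper-quartile factors 19 and 0, and without GMP replicate 4 the counts were 15 and 1. Socs2, a suppressor of growth hormone and cytokine receptors, had 38.3 ± 7.26 CPM in EMCN+ LT-HSCs, 20.1 ± 2.77 CPM in EMCN- LT-HSCs and 0.557 ± 0.193 CPM in GMPs. Its log2 differences were 5.7 ± 0.26 between LT-HSCs and GMPs (edgeR adjusted p = 8.26e-14) and 0.92 ± 0.18 between the fractions (adjusted p = 0.0094). It was the single gene of this list called between the fractions, with 4 higher and 0 lower at an unadjusted p under 0.05 and 3 and 0 with DESeq2 and with limma-voom. At that unadjusted threshold 894 of all 14915 genes were higher and 1182 lower. Phlpp1, a phosphatase gene that acts on AKT, differed from GMPs by 2.56 ± 0.22, the AKT-binding pseudokinase gene Trib3 by 4.99 ± 0.47 and Pik3ip1, which encodes a membrane inhibitor of PI3-kinase, by 1.26 ± 0.11.

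Among 26 tested genes of mTOR and growth targets 13 were higher and 5 lower in LT-HSCs than in GMPs (median 0.2). The 18 called genes of 26 compare with 62.5% of all genes tested. With total counts 21 were higher and 1 lower, and the median was 0.981. The glucose transporter gene Slc2a3 (2.89 ± 0.12), Foxo1 (2.45 ± 0.2), Foxo3 (1.75 ± 0.1) and the cyclin gene Ccnd2 (1.43 ± 0.09) were higher, and the ribosomal protein gene Rps6 (-1.25 ± 0.09) was lower. Hk2 (hexokinase, -0.73 ± 0.09), Rheb (mTOR activator, -0.71 ± 0.11) and Prr5 (mTOR complex subunit, -0.79 ± 0.23) were lower with TMM but not with total counts, where the differences were 0.0489, 0.0727 and -0.015. Between the fractions edgeR called 0 of the 26, with 5 higher and 2 lower at an unadjusted p under 0.05, and DESeq2 and limma-voom each called 1. The smallest p values were those of Hk2 (0.42 ± 0.12, edgeR adjusted p = 0.0734) and Foxo1 (0.64 ± 0.19, adjusted p = 0.106). Hk2 passed with DESeq2 (0.0297) and Foxo1 with limma-voom (0.0391), and both passed when mouse was the block in the 3 complete pairs (0.0355 and 0.0287).

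In the PDGF and VEGF family 4 of 12 tested genes were higher and 5 lower in LT-HSCs than in GMPs, with a median of -0.29 that turned to 0.492 with total counts. Pdgfd, a ligand gene related to Pdgfc, had 17.6 ± 2.99 CPM in EMCN+ LT-HSCs, 10.4 ± 1.04 CPM in EMCN- LT-HSCs and 0 counts in GMPs (at least 112-fold). Also higher were Vegfc, a growth factor gene of lymphatic vessels (3.23 ± 0.34), Pdgfb (3.35 ± 0.64) and the VEGF receptor gene Kdr, with 390 counts in LT-HSCs against 3 in GMPs (ratio 52, exact 95% counting interval 17.7 to 253). The co-receptor gene Nrp1, the urokinase gene Plau, the VEGF receptor gene Flt1 and Vegfa were lower, at log2 differences of -5.12, -4.84, -4.21 and -1.7. Pdgfra, the gene of the main receptor of PDGF-C, did not pass the filter and reached at most 0.976 CPM in EMCN+ LT-HSCs, 1.07 CPM in EMCN- LT-HSCs and 0.326 CPM in GMPs. Pdgfrb had 7.19 ± 1.04, 7.34 ± 0.934 and 9.77 ± 0.782 CPM in EMCN+ LT-HSCs, EMCN- LT-HSCs and GMPs (log2 -0.42 ± 0.19 against GMPs, edgeR adjusted p = 0.0603). Between the fractions edgeR, DESeq2 and limma-voom called 0 genes of this list, with 2 higher and 0 lower at an unadjusted edgeR p under 0.05. Pdgfd (0.75 ± 0.24, edgeR adjusted p = 0.133) and Kdr (0.83 ± 0.34, adjusted p = 0.256) had the smallest p.

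Of 6 tested genes of FGF receptors and FGF family members, with the adaptor gene Frs2 among them, 5 were higher and 1 lower in LT-HSCs than in GMPs. Fgfr1, a receptor gene, had 20.4 ± 2.76 CPM in EMCN+ LT-HSCs, 18 ± 1.53 CPM in EMCN- LT-HSCs and 1.68 ± 0.38 CPM in GMPs (log2 3.52 ± 0.22, edgeR adjusted p = 9.91e-12). Fgfr3 had 0 counts in GMPs (at least 39.9-fold), and Fgf11 and Fgfrl1 differed by 5.17 ± 0.55 and 1.86 ± 0.31. The ligand gene Fgf3 went against the rest, with 0.623 ± 0.107 CPM in EMCN+ LT-HSCs, 3.38 ± 1.15 CPM in EMCN- LT-HSCs and 3.42 ± 1.51 CPM in GMPs. It was lower in EMCN+ than in EMCN- LT-HSCs by -2.45 ± 0.54 (edgeR adjusted p = 0.0203), a call lost when EMCN- replicate 1 (0.111), EMCN- replicate 2 (0.0828) or EMCN+ replicate 2 (0.0817) was left out. Its difference from GMPs (-1.4 ± 0.42, edgeR adjusted p = 0.00684) was not there in EMCN- LT-HSCs alone (0.00419 ± 0.49, adjusted p = 0.996) and did not pass with total counts (adjusted p = 0.199). Fgfr3 had 6.84 ± 2.17 CPM in EMCN+ LT-HSCs and 1.81 ± 0.982 CPM in EMCN- LT-HSCs (log2 1.87 ± 0.49, edgeR adjusted p = 0.0619). Between the fractions edgeR called 0 genes of this list higher and 1 lower, against 1 and 1 at an unadjusted p under 0.05, with DESeq2 and with limma-voom.

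Of 25 other tested genes of secreted growth factors 14 were higher and 6 lower in LT-HSCs than in GMPs (median 1.81), and 17 and 3 with total counts (median 2.58). Inhba, the gene of an activin subunit, had 11.5 ± 2.06 CPM in EMCN+ LT-HSCs, 3.81 ± 0.774 CPM in EMCN- LT-HSCs and 0.458 ± 0.341 CPM in GMPs. It was called higher in EMCN+ LT-HSCs (1.58 ± 0.37, edgeR adjusted p = 0.0291) but not when EMCN- replicate 1, 2 or 4 or EMCN+ replicate 2 or 4 was left out (0.0601 to 0.177). Tgfb1 had 67.1 ± 5.66 CPM in EMCN+ LT-HSCs, 100 ± 23.5 CPM in EMCN- LT-HSCs and 157 ± 10.2 CPM in GMPs, and was called lower in EMCN+ LT-HSCs (-0.58 ± 0.13, edgeR adjusted p = 0.0215). That call was lost when EMCN- replicate 1 or EMCN+ replicate 2, 3 or 4 was left out (0.0525 to 0.266) and with total counts (0.145). Against GMPs the epidermal growth factor relative Btc (at least 65.4-fold), the pleiotrophin gene Ptn (at least 36.6-fold) and Gas6, a ligand gene of the TAM receptors (log2 3.46 ± 0.38), were higher in LT-HSCs. The neuregulin genes Nrg1 and Nrg2 and Manf, whose product is secreted under stress of the endoplasmic reticulum, were lower, at -5.62 ± 0.36, -5.28 ± 0.29 and -2.54 ± 0.09, as was Tgfb1 (-0.97 ± 0.1), whose call against GMPs did not hold with total counts (adjusted p = 0.192).

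**Figure D4:**
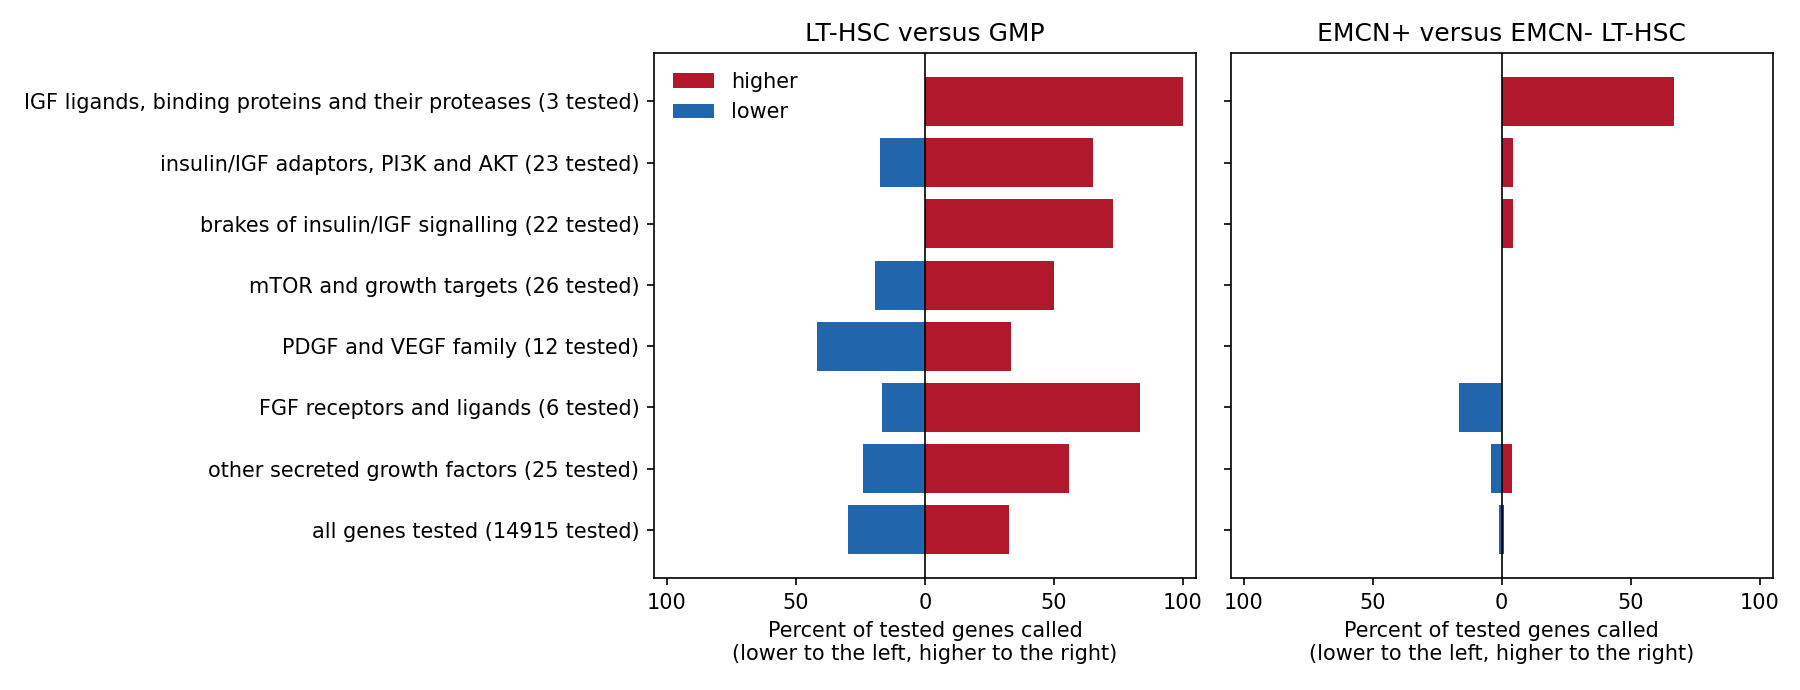
Percent of the tested genes of each list (members described above left out) that were called by edgeR higher (right of 0) or lower (left of 0), for LT-HSCs versus GMPs in the left panel and EMCN+ versus EMCN- LT-HSCs in the right panel, with all 14915 tested genes in the bottom row. The brakes list has 16 of 22 genes higher in LT-HSCs and 0 lower, and the lists of 3 and 6 tested genes move in large steps.

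The genes whose pattern over the 11 libraries was most like that of each gene were found by Pearson's r of log2 CPM among 9949 genes with a mean of at least 5 CPM, as a description over libraries that share depth and sort. Net1 (r = 0.99), Pik3r1 (0.985) and Ndnf (0.984) were most like Pdgfc, and Pdgfc and Net1 (both 0.984) and Igf2bp2 (0.966) most like Ndnf. Igf1 was closest to Thsd4 (0.95), Clock (0.95) and Clcn6 (0.944). Igf1r was closest to Baz2b (0.985), Insr to Ahnak (0.952), Irs2 to Whamm (0.958) and Igfbp4 to Psmb3 (0.995). Over the 7 LT-HSC libraries alone Pdgfc was closest to Smtnl1 (0.995), Ndnf to Sema7a (0.997), and Igf1 to Ndnf (0.985).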

How the data were processed

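Libraries of 11 sorted cell samples were made with a stranded total RNA kit for very small inputs (SMARTer) and read from both ends on an Illumina NextSeq, per the labels' protocols. The labels name the molecule as polyA RNA. The deposited table gives an estimated count for each gene. The submitters' processing notes name cutadapt, which trims reads, and Salmon, which assigns them to transcripts. Versions, genome build, annotation, strand setting and the summing to genes are not given in the sources used here. The values are whole numbers and were rounded as a safeguard.

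Low genes were removed with edgeR's filterByExpr (minimum count 10, groups as labelled), and those kept hold 99.7% of the counts. All 11 libraries were fitted with edgeR 4.0.16 in R 4.3.3 (TMM factors, robust quasi-likelihood dispersions, no mouse block), with Benjamini-Hochberg adjustment and a threshold of 0.05. GENCODE M21 gave coordinates and merged exon lengths, matched by identifier for 54094 of 54347 genes (53307 with the version). Levels per length are CPM per kilobase of merged exons, used in place of a TPM-like level, a choice made after seeing the data. Replicates are separate animals. The mouse number pairs libraries because both fractions and the GMPs of 1 number come from the same animal; deviations from group means correlated at a mean of 0.109 over 10 same-mouse pairs (-0.0606 to 0.223) and -0.0363 over 30 other pairs. Replicates of a group differed beyond sampling (chi-square per degree of freedom 8.41 to 34.9). One count was worth 0.0697 to 0.235 CPM.

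The 8 genes and all lists were chosen with earlier results of these data known. Named were all 8 genes, up to 4 called genes per list, direction and comparison by smallest p (up to 2 where none was called), and up to 3 genes most alike; not every gene the rule allows was named, some genes are not reported here, and Pdgfra, Pdgfrb, Emcn, Mpo and Cdh5 were named as receptors or markers. Alternatives were RLE and upper-quartile factors, DESeq2 1.42.0, limma-voom (limma 3.58.1), no filter, at least 5 CPM in at least 3 libraries, mouse as a block, LT-HSC libraries or complete pairs alone, an unweighted LT-HSC mean and each library left out. Total-count scaling and each fraction alone against GMPs were added after seeing the data. The test was checked on simulated counts. Between the fractions it recovered 18 of 67 genes changed 1.5-fold, 30 of 67 changed 2-fold and 53 of 66 changed 4-fold, with 8 false calls among 109. Between LT-HSCs and GMPs it recovered 19, 38 and 58 of as many genes, with 3 false calls among 118. A gene that was not called may therefore still differ.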

Additional observations from a re-analysis of the deposited data

Results flagged for a closer look

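Pdgfc in GMPs had its highest library, mouse 2, at 0.163 CPM (1 count), while the other 3 GMP libraries were at 0, and this single read is what set the library apart from the rest of its group. Ndnf in GMPs had 0.653 CPM (4 counts) in the same library of mouse 2, with the other 3 GMP libraries again at 0. A check of this kind marks about 1 in 20 groups by chance where values are normally distributed. With the other 3 libraries at 0 it marks any count above 0, so that rate does not hold here. The GMP library of mouse 2 had the largest raw total of its group, 9.19 M estimated counts, against 8.87 M in mouse 1. With TMM factors 1 count was worth 0.163 CPM in mouse 2 and 0.158 CPM in mouse 1, so mouse 1 was the deeper library on that scale.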

How the results depend on the processing

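With mouse as a replicate block, which pairs the libraries of 1 animal, 9455 genes were called between LT-HSCs and GMPs, against 9315, and 374 between EMCN+ and EMCN- LT-HSCs, against 293. The block changed no call of the 7 tested members. Over 22 alternatives the count between LT-HSCs and GMPs stayed within 1.5 times. The count between EMCN+ and EMCN- LT-HSCs was 529 with no filter, 451 with DESeq2 and 908 in complete pairs with the block, and 55 to 338 with 1 library left out. Leaving out EMCN- replicate 1 gave 55 genes, EMCN- replicate 2 gave 194 and EMCN- replicate 4 gave 191, while leaving out EMCN+ replicate 2 gave 105 and EMCN+ replicate 4 gave 184. The share of called genes that were higher between these fractions was 39.2%, against 76.3% with total counts (161 and 50) and 56.1% in the LT-HSC libraries alone (151 and 118). Against GMPs, Pdgfc, Ndnf, Igf1r, Irs2 and Igfbp4 kept direction and call in all 22 alternatives. For Pdgfc and Ndnf, which passed the filter through the LT-HSC libraries alone, the direction was fixed in advance. Igf1 and Insr did so in 21, the exception being EMCN- LT-HSCs alone (0.913 and 0.142), a setting that is not independent of how the genes were chosen. Without GMP replicate 2, Pdgfc was at 8.25 and Ndnf at 8.4, against 0 counts in the other GMP libraries. Differences of the 7 members between the fractions moved by less than 1 SD in all 21 alternatives. Reversed against GMPs were Hk2 (0.0489) and Rheb (0.0727) with total counts and Fgf3 (0.00419) with EMCN- LT-HSCs alone. The cause was not tested. Depth limits Irs1 most, at 31 counts over the LT-HSC libraries and 8 over the GMP libraries, and the ligand genes in GMPs.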
